A study of Homo sapiens with 12 samples.

Results

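The genes described here were the chains of the integrins and of the laminins. They were taken from the table of 19973 genes by symbol, as every name that begins with ITGA or ITGB other than the binding proteins and ITGBL, and every name made of LAMA, LAMB or LAMC and 1 digit. The rule found 38 genes, of which 18 were integrin α chains, 8 were integrin β chains, 5 were laminin α chains, 4 were laminin β chains and 3 were laminin γ chains. RNA had been sequenced from H460, a line from a large cell carcinoma of the lung, and from A549, a line from a lung adenocarcinoma. Both are non-small cell lung cancer lines, labelled wild type, although the paper states that both carry homozygous inactivating mutations of KEAP1. Each is a single established line. Within each line 3 libraries came from non-treated cells, called controls here, and 3 came from cells given 10 µM isovalerylspiramycin I (ISP-I), the macrolide isolated from carrimycin, for 48 h. The labels name no solvent for the controls. The question addressed was how the transcripts of these adhesion chains changed after ISP-I in each line, and whether the change differed between the lines.

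An integrin is a pair of 1 α and 1 β chain that spans the membrane, holds the extracellular matrix outside and is linked to actin or keratin filaments inside. The α chain mostly sets the ligand, so that some integrins bind laminin, some collagen, some the arginine-glycine-aspartate motif of fibronectin and vitronectin, and some the ligands of leukocytes. A laminin is a trimer of an α, a β and a γ chain. In lung epithelium, laminins of the basement membrane are held by laminin-binding integrins, and the pair of ITGA6 and ITGB4 forms the core of the hemidesmosome, where it meets a laminin that holds LAMA3 and LAMB3.

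Promoter letters are shown for LAMB3, ITGAM and ITGB5, the 3 members called in the same direction in both lines. A call was a fold over 2 on the scale log2(FPKM + 1) with an adjusted p under 0.05. By mean FPKM some low members, such as ITGAX, also passed a fold of 2 in both lines. Each run is the 250 bases before a start site in the RefSeq table of GRCh38.p14, written 5′ to 3′ on the strand of the gene, and capitals mark a match to the AP-1 letters TGANTCA.
LAMB3, chr1:209651375-209651624, minus strand: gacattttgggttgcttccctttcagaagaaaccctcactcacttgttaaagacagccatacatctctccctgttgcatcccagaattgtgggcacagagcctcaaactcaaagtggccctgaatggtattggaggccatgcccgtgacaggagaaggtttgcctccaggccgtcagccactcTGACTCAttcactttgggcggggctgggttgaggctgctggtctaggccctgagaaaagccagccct
ITGAM, chr16:31259725-31259974, plus strand: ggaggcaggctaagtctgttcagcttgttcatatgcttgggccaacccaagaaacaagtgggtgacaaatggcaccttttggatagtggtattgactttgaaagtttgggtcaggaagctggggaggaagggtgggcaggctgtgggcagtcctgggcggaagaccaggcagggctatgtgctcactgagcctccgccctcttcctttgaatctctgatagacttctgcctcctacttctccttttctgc
ITGB5, chr3:124901419-124901668, minus strand: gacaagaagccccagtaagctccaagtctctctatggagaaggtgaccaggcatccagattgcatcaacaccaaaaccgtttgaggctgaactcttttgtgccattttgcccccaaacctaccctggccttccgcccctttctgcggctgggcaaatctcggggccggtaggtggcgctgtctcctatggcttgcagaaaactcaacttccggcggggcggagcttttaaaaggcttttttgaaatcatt
The LAMB3 run held TGACTCA from base -67 before its start. Of the 3 LAMB3 windows it is the only 1 with AP-1 letters. The runs of ITGAM and ITGB5 held no AP-1 match, which says only that these letters were not in these windows. The table had 33 windows for 26 of the 38 members, and LAMB3 and ITGB5 had 3 windows each, of which 1 is shown. Both strands were searched over each whole window, the 250 bases and the 50 after them. AP-1 letters stood in 3 of the 33 member windows (9.09%), those of ITGA5, LAMA3 and LAMB3, and in 7.71% of all 35116 windows in the table. The letters of the EGR factors, GCGNGGGCG, which overlap in part with the G-rich box of SP1, also stood in 3 of the 33 (9.09%), those of ITGB5, ITGB8 and LAMC1, beside 9.43% of all windows. Both shares were near those of all windows.

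The values were FPKM, fragments per kilobase of gene length scaled to the depth of the library, from which 14225849 to 17874422 whole reads per library could be read back. FPKM is scaled by the listed gene length, which was 18592 bases for LAMB1, 14561 for ITGB1 and 4647 for LAMB3. Orders and shares of different genes in FPKM rest on these lengths. Library 3 of the A549 controls and library 3 of H460 after ISP-I, numbered by place in the table, stood apart from the other 2 of their groups. Over the 2216 genes with the lowest transcript GC (up to 44.11%) their median ratio to the other 2 was 0.805 and 0.827, and over the 2216 with the highest (from 54.38%) it was 1.15 and 1.12, while in the other 2 groups these ratios were 0.989 to 1.04. ITGAV, ITGB1, ITGA2 and ITGA6, whose transcripts hold 38.3% to 42.5% GC, moved with it, and their changes are given with and without those libraries. Members of higher GC were low there too. LAMB1 (49.4% GC) was at 0.7825 of the other 2 in A549 controls and 0.7835 in treated H460. In treated H460 LAMC1 (48.8%) was at 0.737, LAMA1 (50.8%) at 0.754 and LAMA5 (66.4%) at 0.844. Changes without those libraries are not given for these genes. KRT8, KRT18 and KRT19, keratins of simple epithelia, were at 43.8 FPKM or more in every library, but the epithelial adhesion genes CDH1 and EPCAM stayed at or below 0.148 FPKM in every H460 library. KRT7 of the same list was at 512 FPKM or more in every A549 library. In H460 it was at 0.521, 0.675 and 2.3 FPKM in controls and at 1.11, 1.31 and 4.65 FPKM after ISP-I. Of the markers of other cell types, PTPRC and CD3E of leukocytes, GP9 and PPBP of platelets and MYH2 of muscle were at or near 0 in all groups, but others on the same lists were not. In H460 controls LCP1 (9.75 ± 0.475, SD, n = 3) and CD14 (5.92 ± 0.694), both leukocyte markers, and COL3A1 (8.6 ± 0.497) of fibroblasts were detected, and GP1BA of platelets was at 2.61–3.41 FPKM in A549 controls. Nothing in the labels says that the libraries of a group came from separate cultures, so the p-values measure the spread between these libraries, which may be technical.

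After ISP-I the laminin chains LAMA5, LAMB2 and LAMC1 and the integrin chain ITGB5 fell in both lines, and LAMB3, ITGA3 and ITGAM rose in both. In H460, LAMB3 and ITGAM rose by a fold over 2, and ITGB5, LAMB1, LAMA5 and LAMB2 fell by as much. In A549, ITGAM, ITGA2 and LAMB3 rose by a fold over 2, and ITGB4 and ITGB5 fell. Fold changes are log2 differences on the scale log2(FPKM + 1), which understates the change of low genes, and a call needed a fold over 2 on it and an adjusted p under 0.05 by limma. In bulk RNA, fewer cells of a kind and less RNA per cell cannot be told apart.

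Of the 38 members, 29 reached a mean of 0.1 FPKM in H460 and 30 in A549 and were tested there. In H460, 2 of the 29 were called higher, where 10.5% of all genes tested were, and 4 were called lower, where 15.2% of all genes were. By adjusted p alone 7 were higher, beside 27.6% of all genes, and 11 lower, beside 41.5%. Their median change in H460 was -0.13, close to the -0.15 of all genes. In A549, 3 of 30 were called higher and 2 lower, where 4.2% and 3.51% of all genes were. By adjusted p alone 10 were higher, beside 30.5% of all genes, and 12 lower, beside 27%, with a median of -0.07 against 0.02 for all genes. The H460 shares were near those of all genes, and in A549 only 5 members were called, so the description rests on the individual chains. Scaling by the median of ratios moved the median of all genes in H460 from -0.15 to 0.01. The share of calls that were higher went from 40.8% to 57.3%. Changes in H460 thus depend on the scaling, and the median of -0.15 understates the shift for abundant members. Under median-of-ratios scaling ITGB5 moved from -2.19 to -1.93 and LAMB1 from -1.80 to -1.53. By voom the H460 median of all genes was -0.28 with library totals and 0.01 with median-of-ratios factors. Leaving out library 3 of the A549 controls left 1 member called higher in A549, ITGAM. ITGAL, ITGA8, ITGA9 and ITGB7 were under the minimum in every comparison.

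**Figure D1:**
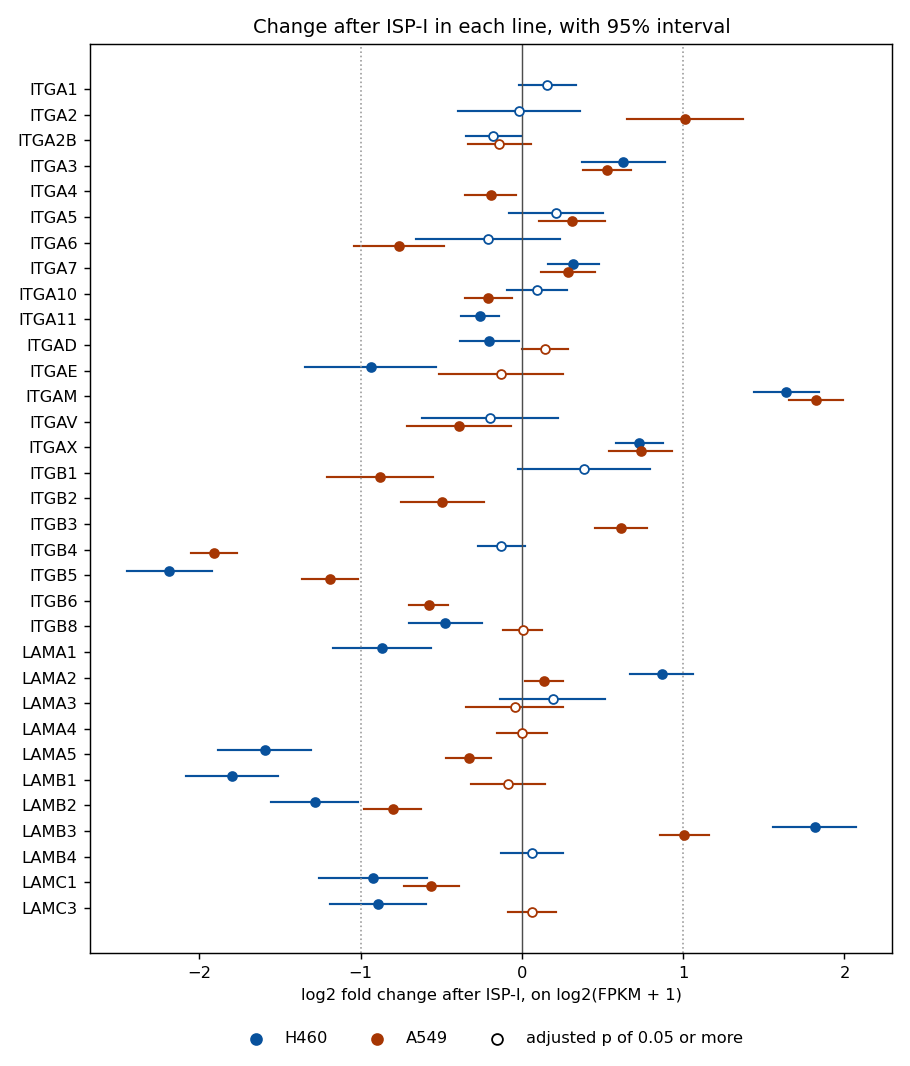
Log2 fold change after ISP-I on log2(FPKM + 1) for members that were tested, with points for H460 (blue) and A549 (brown), lines for the 95% interval of the fit and dotted lines at a fold of 2. ITGB5 lies furthest left in H460 at -2.19 and ITGB4 in A549 at -1.91, ITGAM lies right of 1 in both lines, and open points have an adjusted p of 0.05 or more.

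Among the laminin-binding α chains, ITGA3 (ENSG00000005884, chr17:50055968-50090481, plus strand in hg38) rose in both lines and ITGA6 fell in A549. ITGA3 in H460 was at 3.62, 4.16 and 4.13 FPKM in the control libraries and at 7.19, 6.24 and 6.64 FPKM after ISP-I. The treated libraries were all above the controls, a change of 0.63 (SE 0.11, adjusted p = 0.00108). ITGA3 in A549 was at 117, 121 and 124 FPKM in the control libraries and at 181, 171 and 171 FPKM after ISP-I. Again no library overlapped, with a change of 0.53 (SE 0.07, adjusted p = 0.000248). ITGA3 was the most abundant α chain of A549, at 63.5–69.6% of the summed FPKM of all α chains in controls and 72.1–72.7% after ISP-I. ITGA6 in H460 was at 17.2, 14.9 and 15.9 FPKM in the control libraries and at 15.6, 17 and 9.61 FPKM after ISP-I. Its groups overlapped there, and the change was -0.21 (SE 0.20, adjusted p = 0.365). ITGA6 in A549 was at 24, 23.7 and 17.3 FPKM in the control libraries and at 12.4, 12.4 and 11.9 FPKM after ISP-I. All treated values were below the controls, a change of -0.76 (SE 0.12, adjusted p = 0.000882). The transcript of ITGA6 is 42.5% GC, and library 3 stood at 0.724 of the mean of the other 2 in A549 controls and at 0.589 in treated H460. Without those libraries the change was -0.91 in A549 and 0.03 in H460. ITGA7, the laminin-binding chain known from muscle, was low, at 0.242–0.294 FPKM in H460 controls and 0.526–0.687 FPKM after ISP-I, and at 0.255–0.364 and 0.459–0.672 FPKM in A549. It rose in both lines, by 0.32 (SE 0.07, adjusted p = 0.00309) and 0.29 (SE 0.07, adjusted p = 0.00961), and it overlaps METTL7B and BLOC1S1 on the other strand. The summed FPKM of 4 muscle markers also went from 0.455–0.643 to 1.27–1.71 in H460 and from 0.119–0.27 to 0.354–0.978 in A549, most of it CKM after ISP-I and with none at a mean of 1 FPKM, and their part in the result was not tested.

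Of the collagen-binding α chains only ITGA2 (ENSG00000164171, chr5:52989340-53094779, plus strand) was abundant. ITGA2 in H460 was at 3.77, 3.22 and 3.61 FPKM in the control libraries and at 4.02, 4.14 and 2.46 FPKM after ISP-I. The groups overlapped, and the change was -0.02 (SE 0.17, adjusted p = 0.925), with a 95% interval of -0.40 to 0.36. ITGA2 in A549 was at 8.72, 9.16 and 5.57 FPKM in the control libraries and at 17.4, 15.9 and 16 FPKM after ISP-I. Every treated A549 library was above every control, a change of 1.01 (SE 0.16, adjusted p = 0.00078), close to the fold of 2 that a call needed. ITGA2 has a transcript of 40.1% GC, and library 3 stood at 0.624 of the other 2 in A549 controls and 0.602 in treated H460. Without the A549 library the rise was 0.81 (adjusted p = 1.17e-06), past the p threshold but under a fold of 2. Removing the trend with GC gave 0.91 and -0.06 in A549 and H460. The other 3 chains of this kind were low. ITGA1 stayed at or below 0.424 FPKM in all libraries, and it shares its locus with PELO on the same strand, so its reads are uncertain. ITGA10 was at 0.203–0.294 FPKM in A549 controls and 0.0204–0.134 FPKM after ISP-I, a change of -0.21 (SE 0.06, adjusted p = 0.0216). ITGA11, at 0.218–0.259 FPKM in H460 controls, fell to 0.0186–0.0463 FPKM, a change of -0.26 (SE 0.05, adjusted p = 0.00204).

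Of the abundant α chains that bind the arginine-glycine-aspartate motif, ITGA5 and ITGAV passed the p threshold in A549 with folds under 2. ITGA5, the fibronectin receptor chain, was at 12.8, 13.8 and 14.1 FPKM in H460 controls and at 18.6, 14.2 and 15.2 FPKM after ISP-I, a change of 0.21 (SE 0.13, adjusted p = 0.163). ITGA5 in A549 was at 7.83, 9.18 and 9.84 FPKM in the control libraries and at 11.7, 11.1 and 11.2 FPKM after ISP-I. The A549 groups did not overlap, and the change was 0.31 (SE 0.09, adjusted p = 0.0163). The adjusted p in A549 rose to 0.0638 without treated library 1 and to 0.0512 without treated library 3, and that in H460 was 0.00962 under median-of-ratios scaling. ITGAV in H460 was at 10.8, 7.36 and 8.98 FPKM in the control libraries and at 7.26, 9.87 and 6.25 FPKM after ISP-I. ITGAV in A549 was at 19.95, 20.4 and 13.6 FPKM in the control libraries and at 13.9, 12.8 and 13.1 FPKM after ISP-I. ITGAV, the α chain that pairs with ITGB5, overlapped between groups in both lines, with changes of -0.20 (SE 0.18, adjusted p = 0.361) and -0.39 (SE 0.14, adjusted p = 0.0423). The adjusted p in A549 missed 0.05 in 5 of the 6 fits that left out 1 library and was 7.15e-06 without library 3 of the controls, where the change was -0.57. Its transcript is 38.3% GC, and library 3 stood at 0.675 of the other 2 in A549 controls and at 0.729 in treated H460, without which the H460 change was -0.07. ITGA2B, the platelet chain, was under 0.6 FPKM throughout. ITGA8 had 0 reads in all A549 controls and 15, 10 and 19 reads after ISP-I, which is at least 14.2-fold higher when the controls are set at the floor of 3 reads over the group. By voom on the reads its change in A549 was 4.81 (adjusted p = 3.54e-05).

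ITGAM, the α chain of complement receptor 3 on myeloid cells, rose in both lines. ITGAM in H460 was at 0, 0.081 and 0.0118 FPKM in the control libraries and at 1.99, 2.5 and 2.17 FPKM after ISP-I. The H460 controls held 0, 7 and 1 reads of it and the treated libraries 202, 237 and 183 reads, a change of 1.64 (SE 0.09, adjusted p = 1.45e-06). ITGAM in A549 was at 1.17, 1.32 and 1.2 FPKM in the control libraries and at 6.84, 7.05 and 6.78 FPKM after ISP-I. Those values rest on 95, 110 and 101 reads and 581, 629 and 553 reads, and the change was 1.82 (SE 0.07, adjusted p = 9.67e-07). The treated libraries were above all controls in each line, and the ratio of mean FPKM was 5.6 in A549. ITGAX, the α chain of complement receptor 4, was at 0.0295, 0.0372 and 0.0759 FPKM in H460 controls and at 0.735, 0.806 and 0.667 FPKM after ISP-I. ITGAX in A549 was at 0.358, 0.269 and 0.373 FPKM in the control libraries and at 1.4, 1.29 and 0.995 FPKM after ISP-I. ITGAX rose without overlap in both lines, by 0.73 (SE 0.06, adjusted p = 1.59e-05) and 0.74 (SE 0.08, adjusted p = 0.000154). By voom on the reads its rises were 4.21 (adjusted p = 8.54e-06) in H460 and 1.85 (adjusted p = 0.000112) in A549. By voom these differed by 2.37 (adjusted p = 0.000923), and the H460 controls held 3, 4 and 8 reads. The shared β chain of ITGAM and ITGAX, ITGB2, did not follow. It was at 0.0195–0.0506 and 0.0437–0.0981 FPKM in H460. In A549 it fell from 0.696–1.17 to 0.186–0.426 FPKM (-0.49, SE 0.11, adjusted p = 0.00586). The summed FPKM of 6 leukocyte markers was 14.8–16.5 in H460 controls and 2.83–3.48 after ISP-I, most of it LCP1 and CD14, and 0.748–1.33 and 0.567–0.94 in A549. In A549 its members moved apart. LCP1 had 0, 1 and 1 reads in A549 controls and 48, 46 and 36 after ISP-I, higher together with ITGAM and ITGAX, while CD14 had 17, 32 and 28 and 2, 8 and 1 reads. In H460 both were lower after ISP-I, and the part of leukocyte markers in the result was not tested. The defining markers PTPRC and CD3E were at 0 to 0.0368 FPKM in all 12 libraries.

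ITGAM, ITGAX and ITGAD follow each other on the plus strand of chromosome 16, at chr16:31259967-31332892, chr16:31355134-31382999 and chr16:31393335-31426505 of hg38, with gaps of 22242 and 10336 bases. ITGAD was low, with 10, 15 and 27 reads in H460 controls and 10, 5 and 6 after ISP-I, and 5, 10 and 2 and 16, 11 and 13 reads in A549, where the groups did not overlap. Its changes were -0.20 (SE 0.08, adjusted p = 0.0486) and 0.15 (SE 0.06, adjusted p = 0.0739), and by voom on the reads -1.05 (adjusted p = 0.0788) and 1.31 (adjusted p = 0.0463). The region within 150000 bases was looked at after the values of the pair were seen. Of its other genes BCKDK, a mitochondrial kinase, fell in H460 with a log2 change of -1.57 (SE 0.11, adjusted p = 4.72e-06), and RUSF1 rose by 0.47 (SE 0.14, adjusted p = 0.0135) and 0.64 (SE 0.08, adjusted p = 0.000341) in H460 and A549. ARMC5 rose in H460 by 0.76 (SE 0.13, adjusted p = 0.00105), near the value of ITGAX on log2(FPKM + 1). In mean FPKM the ratio in H460 was 1.83 for ARMC5 and 15.5 for ITGAX. TGFB1I1, a paxillin relative, rose in A549 by 0.64 (SE 0.13, adjusted p = 0.00279). Its change in H460 was -0.23 (SE 0.06, adjusted p = 0.00654). SLC5A2 (0.43, SE 0.11, adjusted p = 0.00734) and ZNF843 (-0.18, SE 0.06, adjusted p = 0.0297) also passed the p threshold in H460. Apart from ITGAM and BCKDK, no tested gene of the region passed a fold of 2 on log2(FPKM + 1) in either line. Ratios of mean FPKM passed a fold of 2 for low genes of H460: ITGAX (15.5), SLC5A2 (9.46), ITGAD (0.362), ZNF843 (0.279) and TGFB1I1 (0.257). In A549 the ratios of ITGAX (3.68) and ITGAD (2.3) passed it. Among the remaining leukocyte chains, ITGAE, which binds E-cadherin, was at 4.57, 4.2 and 4.02 FPKM in H460 controls and 1.53, 1.24 and 2.64 FPKM after ISP-I, a change of -0.94 (SE 0.18, adjusted p = 0.00154). It overlaps HASPIN on the other strand, and whether the counting used strand is not stated. ITGA4, at 0.153–0.351 FPKM in A549 controls, went to 0.0629–0.0957 FPKM (-0.19, SE 0.07, adjusted p = 0.0414), and ITGAL and ITGA9 stayed under 0.06 FPKM.

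**Figure D2:**
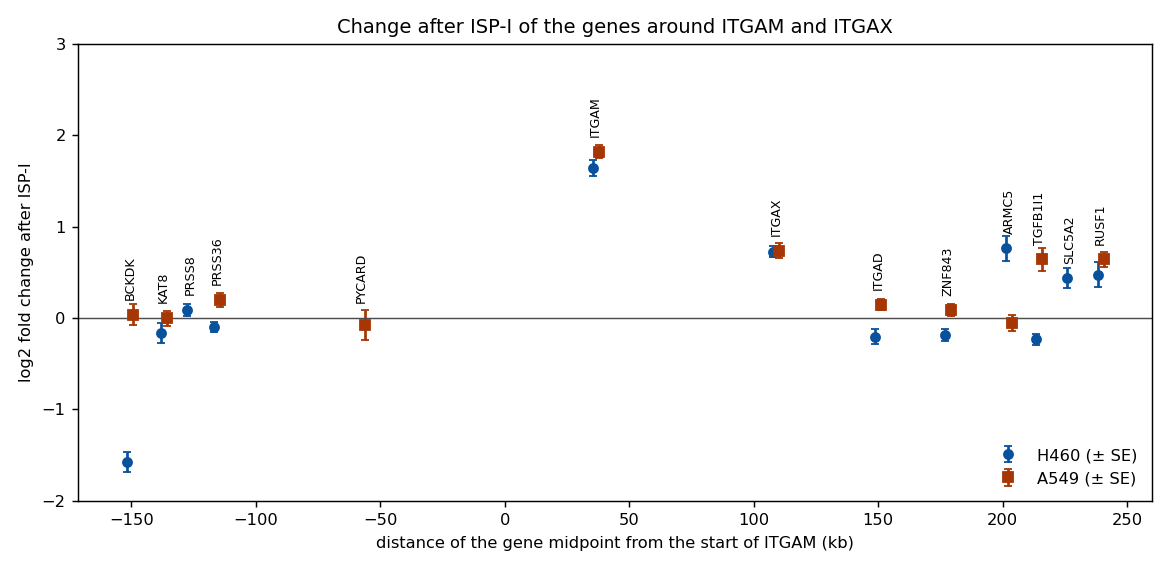
Log2 fold change after ISP-I on log2(FPKM + 1) with its SE for tested genes around ITGAM, against the distance of each gene's midpoint from the start of ITGAM in kilobases, with circles for H460 and squares for A549 set slightly apart. ITGAM at 1.64 and 1.82 and ITGAX at 0.73 and 0.74 lie above their neighbour ITGAD, at -0.20 and 0.15.

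ITGB1 (ENSG00000150093, chr10:32887273-33005792, minus strand), the common β partner of the collagen, laminin and fibronectin receptors, was the most abundant β chain in both lines and changed differently in them. ITGB1 in H460 was at 36.4, 28.6 and 31.4 FPKM in the control libraries and at 45, 51 and 32.4 FPKM after ISP-I. The groups overlapped in H460, where library 3 of the treated cells was the lowest, and the change was 0.39 (SE 0.18, adjusted p = 0.0842). ITGB1 in A549 was at 179, 184 and 124 FPKM in the control libraries and at 84.8, 86.2 and 87.7 FPKM after ISP-I. In A549 every treated library was below every control, although control library 3 was the lowest of its group, and the change was -0.88 (SE 0.14, adjusted p = 0.00102). With a transcript of 39.5% GC, library 3 held 0.681 of the level of the other 2 in A549 controls and 0.676 in treated H460. Without those libraries ITGB1 changed by -1.06 in A549 and by 0.57 (adjusted p = 0.00263) in H460. The H460 change also passed the p threshold under median-of-ratios scaling, at 0.67, and with the GC trend removed, at 0.33 (adjusted p = 0.042).

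ITGB5 (ENSG00000082781, chr3:124761948-124901418, minus strand), the vitronectin receptor chain that pairs with ITGAV, was called lower in both lines. ITGB5 in H460 was at 22.3, 24.1 and 23.6 FPKM in the control libraries and at 4.96, 4.01 and 4.1 FPKM after ISP-I. ITGB5 in A549 was at 63.5, 64.9 and 74.1 FPKM in the control libraries and at 28.6, 28.8 and 29.7 FPKM after ISP-I. No treated library reached a control in either line, and the changes were -2.19 (SE 0.12, adjusted p = 1.37e-06) and -1.19 (SE 0.08, adjusted p = 7.71e-06). ITGB4 (ENSG00000132470, chr17:75721328-75757818, plus strand), the hemidesmosome chain, set the lines apart before treatment. ITGB4 in A549 was at 68, 71.8 and 72.7 FPKM in the control libraries and at 18.4, 17.7 and 18.4 FPKM after ISP-I. The A549 treated libraries were close to each other and all below the controls, a change of -1.91 (SE 0.06, adjusted p = 3.86e-07). ITGB4 in H460 was at 0.154, 0.243 and 0.308 FPKM in the control libraries and at 0.141, 0.115 and 0.13 FPKM after ISP-I. That is 15, 25 and 31 reads and then 17, 13 and 13 reads, a change of -0.13 (SE 0.06, adjusted p = 0.101), which with the GC trend removed was 0.25 (adjusted p = 0.0153), so that no direction can be read for H460 at this level. GALK1 overlaps ITGB4 on the other strand at up to 27.9 FPKM.

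The low β chains are given by their reads. ITGB3, the β chain of the platelet and vitronectin receptors, had 30, 33 and 32 reads in A549 controls and 114, 106 and 83 after ISP-I, a rise of 0.62 (SE 0.07, adjusted p = 0.000155), and in H460 4, 0 and 3 and 20, 16 and 13 reads, below the minimum of the main test, and by voom it rose there by 3.21 (adjusted p = 0.0022). Platelet markers did not rise with it, since GP9 and PPBP were at 0 in every library and the summed list was at 3.05–3.67 and 1.88–3.08 FPKM in A549. ITGB6, the epithelial chain that activates TGF-β, had 51, 47 and 48 reads in A549 controls and 4, 6 and 5 after ISP-I, a change of -0.58 (SE 0.05, adjusted p = 4.57e-05) on the main scale and -3.23 (adjusted p = 2.62e-05) by voom, which weights the reads. It had 0 reads in all H460 libraries. ITGB8, the other chain of this function, fell in H460 from 0.665–0.965 to 0.178–0.444 FPKM (-0.47, SE 0.10, adjusted p = 0.00261) and stayed at 0.184–0.26 and 0.219–0.23 FPKM in A549 (0.01, SE 0.05, adjusted p = 0.924). ITGB7 had at most 7 reads in a library.

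**Figure D3:**
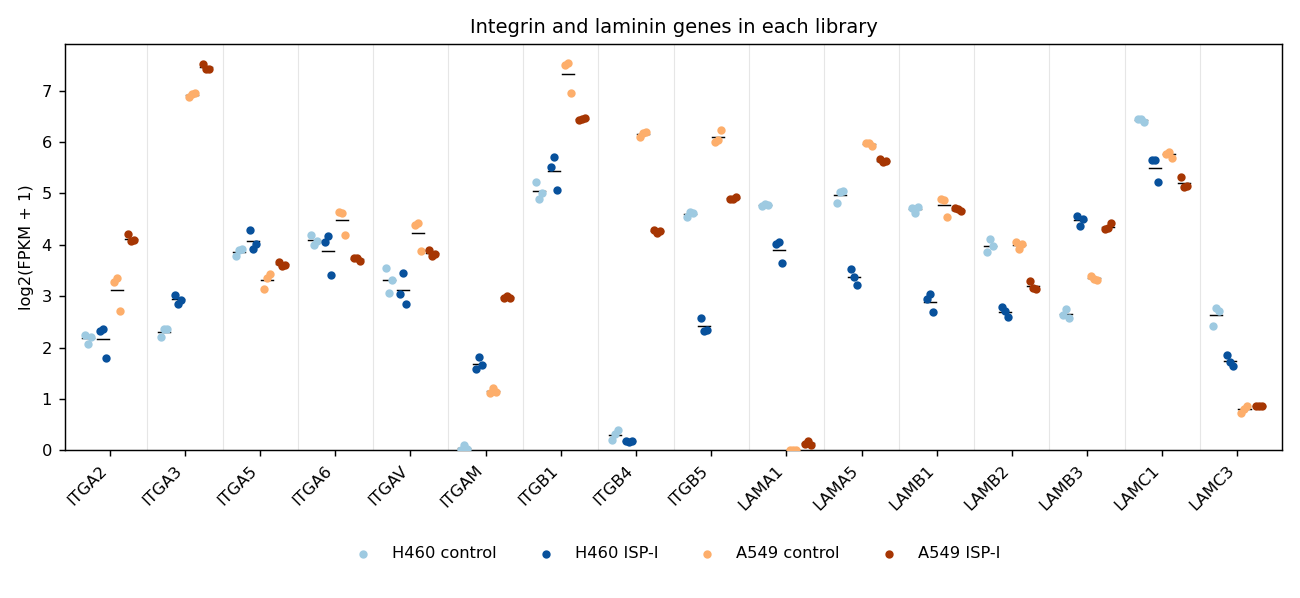
Level of 16 members that were called in a line or had a group mean of 5 FPKM or more, as log2(FPKM + 1), with 1 point per library and a bar at the mean of the 3 libraries of each group. ITGB4 and ITGA3 lie above every H460 library in all A549 libraries, LAMA1 is near 0 in A549, and the low library 3 of A549 controls shows in ITGB1, ITGA6, ITGAV and ITGA2.

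As shares of the summed FPKM of all β chains, ITGB1 went from 53.3–60.9% of the total in H460 controls to 87.3–91.3% after ISP-I, and ITGB5 from 37.3–44.8% to 7.17–11%. The H460 sum itself was 53.7–59.8 FPKM and then 37.2–55.9 FPKM, overlapping. In A549 the sum went from 273–323 to 134–137 FPKM. ITGB4 there went from 21.8–26.7% to 13.2–13.8% of it, and ITGB5 from 20.1–27.2% to 21.4–21.6%, a share in which the groups overlapped in range. The summed α chains went in A549 from 178–189.6 to 236–249 FPKM and were at 49.7–54.4 and 47.3–58.6 FPKM in H460.

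The laminin α chains fell where they were abundant. LAMA5 (ENSG00000130702, chr20:62307955-62367312, minus strand), the broadly expressed α chain of basement membranes, was the main one in A549 and shared that place with LAMA1 in H460. LAMA5 in H460 was at 27.1, 31.6 and 32.3 FPKM in the control libraries and at 10.5, 9.33 and 8.36 FPKM after ISP-I. LAMA5 in A549 was at 62.1, 62.5 and 60.03 FPKM in the control libraries and at 49.8, 47.9 and 48.4 FPKM after ISP-I. The treated libraries were below all controls in both lines, with log2 changes of -1.59 (SE 0.13, adjusted p = 9.96e-06) and -0.33 (SE 0.06, adjusted p = 0.00175). ADRM1, at up to 112 FPKM, overlaps it on the other strand. LAMA1 in H460 was at 25.9, 26.6 and 26.3 FPKM in the control libraries and at 15.1, 15.6 and 11.6 FPKM after ISP-I. LAMA1, the α chain of embryonic basement membranes, fell there without overlap, with a log2 change of -0.86 (SE 0.13, adjusted p = 0.000456). In A549 it had 2, 0 and 1 reads in controls and 20, 34 and 16 after ISP-I, without overlap. That is below the minimum of 0.1 FPKM of the main test, and by voom on the reads LAMA1 rose in A549 by 4.15 (adjusted p = 0.000329). LAMA2, the chain of muscle basement membrane, had 15, 18 and 18 reads in H460 controls and 149, 201 and 173 after ISP-I. It rose by 0.87 (SE 0.08, adjusted p = 3.17e-05) in H460 and by 0.14 (SE 0.05, adjusted p = 0.0475) in A549. By voom these rises were 3.45 (adjusted p = 5.56e-06) and 1.56 (adjusted p = 0.00555). LAMA3, the epithelial chain that joins LAMB3, was at 1.51, 1.37 and 1.77 FPKM in H460 controls and 2.07, 2.36 and 1.38 FPKM after ISP-I, and at 4.49, 4.55 and 3.08 and 4.22, 3.72 and 3.59 FPKM in A549. Its groups overlapped in both lines, with changes of 0.19 (SE 0.14, adjusted p = 0.26) and -0.05 (SE 0.13, adjusted p = 0.786). LAMA4, the endothelial chain, stayed under 0.46 FPKM.

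Among the β chains, LAMB3 (ENSG00000196878, chr1:209614870-209652425, minus strand in hg38) rose while LAMB2 fell in both lines and LAMB1 fell in H460. LAMB3 in H460 was at 5.25, 5.75 and 4.97 FPKM in the control libraries and at 22.6, 19.6 and 21.6 FPKM after ISP-I. LAMB3 in A549 was at 9.55, 9.14 and 8.9 FPKM in the control libraries and at 18.9, 19.2 and 20.4 FPKM after ISP-I. LAMB3 was higher in every treated library than in any control, by 1.82 (SE 0.11, adjusted p = 2.76e-06) and 1.01 (SE 0.07, adjusted p = 9.16e-06). The A549 value lies at the fold of 2, at 0.99 under median-of-ratios scaling and 0.97 under quantile normalization. LAMB1 in H460 was at 25.4, 23.6 and 25.5 FPKM in the control libraries and at 6.71, 7.22 and 5.46 FPKM after ISP-I. LAMB1 (ENSG00000091136, chr7:107923799-108003213, minus strand) was below the controls in every treated H460 library, with a log2 change of -1.80 (SE 0.12, adjusted p = 4.81e-06). LAMB1 in A549 was at 28.6, 28.4 and 22.3 FPKM in the control libraries and at 25.1, 24.9 and 24.1 FPKM after ISP-I. The A549 groups overlapped, with a change of -0.09 (SE 0.10, adjusted p = 0.485), a 95% interval of -0.31 to 0.14. The overlap came from control library 3, at 0.7825 of the other 2 controls, which were above every treated library. DLD overlaps LAMB1 on the other strand at up to 37.2 FPKM. LAMB2 in H460 was at 13.6, 16.2 and 14.8 FPKM in the control libraries and at 5.94, 5.59 and 5.01 FPKM after ISP-I. LAMB2 in A549 was at 15.6, 14 and 15.2 FPKM in the control libraries and at 8.77, 7.95 and 7.77 FPKM after ISP-I. LAMB2, the chain of synaptic and kidney basement membranes, fell without overlap, with log2 changes of -1.29 (SE 0.12, adjusted p = 2.21e-05) and -0.80 (SE 0.08, adjusted p = 5.88e-05). With the GC trend removed its change in H460 was -0.93, under a fold of 2. LAMB4 had at most 46 reads in a library.

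Among the γ chains, LAMC1, the γ chain of most laminins and the most abundant laminin chain of H460, fell in both lines. LAMC1 in H460 was at 86.4, 86 and 83.2 FPKM in the control libraries and at 49, 49.3 and 36.2 FPKM after ISP-I. LAMC1 in A549 was at 53.5, 55.2 and 50.9 FPKM in the control libraries and at 38.9, 34 and 34.4 FPKM after ISP-I. The groups did not overlap, and the changes were -0.92 (SE 0.15, adjusted p = 0.000549) and -0.56 (SE 0.07, adjusted p = 0.000346). LAMC3 in H460 was at 4.36, 5.8 and 5.56 FPKM in the control libraries and at 2.64, 2.29 and 2.13 FPKM after ISP-I. LAMC3 fell there, with a log2 change of -0.89 (SE 0.13, adjusted p = 0.000359), and in A549 it was at 0.661, 0.746 and 0.826 and 0.824, 0.813 and 0.827 FPKM, overlapping (0.06, SE 0.06, adjusted p = 0.427).

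The mix of laminin β chains moved toward LAMB3 in each line. LAMB3 made up 10.9–12.6% of the summed β chain FPKM in H460 controls and 59.8–67% after ISP-I, and 17.7–19.2% and 35.8–38.9% in A549. By reads, which are not scaled by length, LAMB3 went from 3.84–4.62% to 34.2–42.3% in H460. There LAMB1 stayed larger by reads after ISP-I, at 42.8–50.4%. In A549 LAMB3 went from 6.36–7.38% to 14.3–15.8% by reads. LAMA3, the α chain that joins LAMB3, went from 2.29–2.92% to 6.13–8.28% of the α chains in H460, where LAMA1 and LAMA5 fell, and was at 4.85–6.75% and 6.83–7.72% in A549. The summed α and β chains were lower in treated H460, from 54.7–60.6 to 22.4–28.5 and from 44.4–45.8 to 32.2–35.5 FPKM. In A549 the α sum went from 63.5–67.4 to 52.3–54.7 FPKM, while the β sum was at 46.5–53.8 and 52–52.8 FPKM, overlapping. No test was run on sums or shares.

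**Figure D4:**
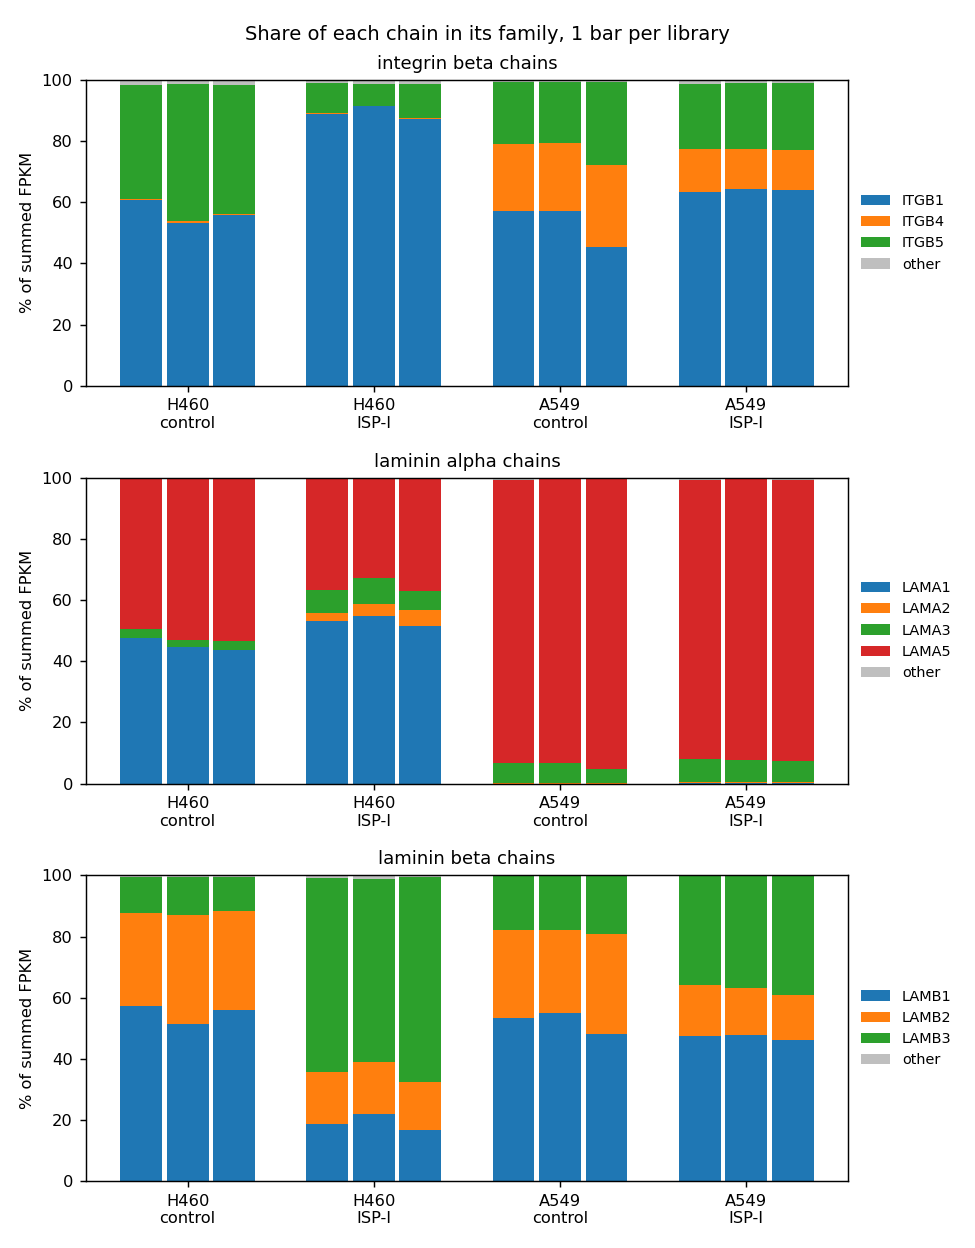
Share of each chain in the summed FPKM of its family, in percent, with 1 stacked bar for each of the 12 libraries in 3 panels for the integrin β and the laminin α and β chains. LAMB3 takes up more of every treated bar than of any control bar of its line, and ITGB1 fills 87.3–91.3% of the treated H460 bars.

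The difference of the changes between the lines was tested itself, as H460 minus A549, in a fit of all 12 libraries that took 32 members. Of these, 2 were called more positive in H460, where 5.93% of all genes were, and 3 more negative, where 10.1% were. Median-of-ratios scaling moved the share of these calls over all genes that were positive from 37.0% to 61.1%, and the median difference from -0.16 to 0.02. ITGB4 (1.78, SE 0.11, adjusted p = 1.1e-07) and ITGB1 (1.27, SE 0.25, adjusted p = 0.00107) were the positive ones, and both fell in A549. ITGB4 was at 0.308 FPKM or less in every H460 library. At that level log2(FPKM + 1) leaves little room for a fall. Its difference was thus set largely by the fall in A549 and says little on the response of H460. LAMB1 (-1.71, SE 0.16, adjusted p = 3.18e-06), LAMA5 (-1.26, SE 0.13, adjusted p = 8.7e-06) and ITGA2 (-1.03, SE 0.25, adjusted p = 0.0039) were the negative ones. LAMA5 fell more in H460, and ITGA2 rose in A549. LAMB1 fell in H460, while its change in A549 missed the p threshold. Under median-of-ratios scaling LAMA5 and ITGA2 differed by -0.97 and -0.77 and with the GC trend removed by -0.97 and -0.99, below a fold of 2 but past the p threshold. ITGB5 missed the fold at -0.999 (SE 0.13, adjusted p = 4.28e-05), LAMC3 at -0.95 (SE 0.14, adjusted p = 0.000105) and LAMA1, near 0 in A549, at -0.99 (SE 0.14, adjusted p = 9.66e-05). LAMB3 rose more in H460, by 0.81 (SE 0.11, adjusted p = 9.39e-05). ITGAM differed by -0.18, with an interval of -0.42 to 0.05, and the sign of this difference turned with the scale, to 1.80 with a pseudocount of 0.1 (adjusted p = 0.000187) and to 4.54 by voom (adjusted p = 6.1e-05). ITGA3 differed by 0.10, with an interval of -0.14 to 0.35, and passed the p threshold under median-of-ratios scaling at 0.38 (adjusted p = 0.0231), quantile normalization at 0.35, voom with median-of-ratios factors at 0.54 and removal of the GC trend at 0.39. For neither gene can it be said that the lines acted alike. The count of negative members was 5 without library 1 of the H460 controls and 6 without library 1 of treated H460.

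Across the 25 members tested in both lines, 18 (72%) had changes of the same sign, beside 72.3% of the 12707 genes tested in both. The adjusted p was passed in both lines by 11 members (44%), beside 44.5% of all genes, and all 11 had the same sign, as did 87.9% of all genes that passed in both. ITGB5, ITGAM and LAMB3, 3 of the 25, were called in both, beside 5.26% of all genes. Pearson's r between the changes was 0.62 and Spearman's rho 0.64, near the 0.67 and 0.64 over all genes. This is across genes, which are not independent replicates, and the lines share no library.

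Before treatment the lines already differed. Of the 33 members tested between control libraries, 2 were called higher in H460, where 5.64% of all genes were, and 7 higher in A549, where 8.78% were. LAMA1 (4.76 as log2 H460 minus A549, adjusted p = 2.59e-09) and LAMC3 (1.83, adjusted p = 2.01e-06) were the 2 in H460. ITGB4 (-5.86), ITGA3 (-4.61), ITGB1 (-2.29), ITGB5 (-1.49), ITGAM (-1.11) and LAMA5 (-1.0004) were among those higher in A549, each with an adjusted p of 2.38e-05 or less, and LAMA5 lies at the threshold. ITGB4 of the hemidesmosome and the laminin receptor chain ITGA3 were thus at 68 FPKM or more in every A549 control and at or below 4.16 FPKM in every H460 control. In FPKM order the integrin chains of A549 controls ran from ITGB1 (162 ± 33.5, SD, n = 3) to ITGA3 (121 ± 3.27), ITGB4 (70.8 ± 2.5), ITGB5 (67.5 ± 5.76), ITGA6 (21.7 ± 3.8) and ITGAV (18 ± 3.79). The libraries of ITGB4 and ITGB5 overlapped there, as did those of ITGA6 and ITGAV, and the lowest library of ITGB1 met the highest of ITGA3. In H460 controls the order was ITGB1 (32.1 ± 3.92, SD, n = 3), ITGB5 (23.3 ± 0.929), ITGA6 (16 ± 1.15), ITGA5 (13.6 ± 0.69) and ITGAV (9.04 ± 1.7). For the laminins of H460, LAMC1 (85.2 ± 1.74) led LAMA5 (30.3 ± 2.82), LAMA1 (26.3 ± 0.349) and LAMB1 (24.8 ± 1.07), of which the libraries of the last pair did not overlap.

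Genes around these chains were counted from 4 lists. Of the adaptors and kinases on the inner side of integrins, 6 of 53 tested were called higher and 13 lower in H460, and 1 of 56 higher and 2 lower in A549. Their median change was -0.35 and -0.03, beside -0.15 and 0.02 for all genes, of which 10.5% were called higher and 15.2% lower in H460. In A549 these shares were 4.2% and 3.51%. LPXN, a paxillin relative, rose in both, by 2.10 (adjusted p = 1.23e-06) and 2.01 (adjusted p = 1.39e-06). KANK2, which binds talin, fell in both, with log2 changes of -3.16 (adjusted p = 3.61e-07) and -1.54 (adjusted p = 1.5e-06). TNS2 in H460 (-2.61, adjusted p = 5.38e-07) and TNS3 in A549 (-1.09, adjusted p = 6.9e-06), both tensins, were the other 2 with the smallest p.

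Of the partners of laminin outside the integrins, 2 of 26 were called higher and 10 lower in H460, and 4 of 26 were called lower in A549, where 6 were higher by adjusted p without reaching a fold of 2. The shares called over all genes were 10.5% (higher) and 15.2% (lower) in H460, against 4.2% and 3.51% in A549. The medians of the list were -0.58 and -0.44, beside -0.15 and 0.02 for all genes. NID1, the nidogen that links laminin to collagen IV, was at 2.14, 1.97 and 2.09 FPKM in H460 controls and at 97.1, 121 and 83.5 FPKM after ISP-I, a rise of 5.03 (adjusted p = 1.2e-07). In A549 it was at 2.06–2.63 and 4.02–4.38 FPKM (0.65, adjusted p = 0.000455), and the lines differed by 4.38 (adjusted p = 4.29e-09). DAG1, the dystroglycan that binds laminin α chains, went the other way, from 36.1, 40.7 and 41.2 to 2.85, 2.36 and 2.4 FPKM in H460 (-3.51, adjusted p = 2.06e-07). It was lower in treated A549 too, from 44.3, 43.8 and 48.8 to 21, 19.5 and 18.4 FPKM. SMOC1, a matrix calcium-binding protein, also fell in H460 (-3.13, adjusted p = 3.38e-07). In A549 the 3 with the smallest p were BCAM, a receptor for LAMA5 (-2.19, adjusted p = 8.86e-07), COL18A1 (-1.23, adjusted p = 2.32e-06) and the proteoglycan HSPG2 (-1.41, adjusted p = 7.7e-06), and all 3 fell.

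Of 15 hemidesmosome and tetraspanin partners tested in each line, H460 had 2 called in each direction and A549 had 1 in each, with medians of 0.10 and 0.06 beside -0.15 and 0.02 for all genes. Those directions held 10.5% and 15.2% of all genes in H460, against 4.2% and 3.51% in A549. The tetraspanin CD81 fell in both, with log2 changes of -1.70 (adjusted p = 8.1e-06) and -1.07 (adjusted p = 0.000329). CD63, a tetraspanin of lysosomes, rose in both, by 1.12 (adjusted p = 0.00843) and 1.29 (adjusted p = 8.49e-05). In H460 it was at 104, 111 and 107 FPKM in controls and at 191, 168 and 396 FPKM after ISP-I. Library 3 of treated H460, which stood apart by GC, was thus far above the others, and the change without it is not given. SLC3A2, the heavy chain that binds integrin β chains, rose in H460 (1.79, adjusted p = 5.69e-05), and CD47, a partner of ITGAV and ITGB3, fell there (-1.14, adjusted p = 3.57e-05). Of the ligands other than laminins, 3 of 26 were called higher and 7 lower in H460, and 2 of 29 higher and 7 lower in A549, with medians of -0.30 and -0.33, against the same shares and medians of all genes. FN1, the fibronectin that ITGA5 holds, fell from 15.9, 16.5 and 15.5 to 4.35, 4.1 and 3.69 FPKM in A549 (-1.75, adjusted p = 1.33e-06). TGFBI (-2.66, adjusted p = 8.88e-08) and TNC (-1.68, adjusted p = 1.45e-06), both matrix proteins, fell beside it in A549. FN1 was lower in treated H460 too, from 128, 134 and 133 to 43, 40.1 and 24.7 FPKM. TGFBI went there from 175, 190 and 178 to 86.6, 74.3 and 67 FPKM. TNC went the other way in H460, from 0.793, 0.786 and 0.961 to 2.57, 3.03 and 2.27 FPKM. In H460 the 3 with the smallest p were L1CAM (-2.37, adjusted p = 1.57e-06), COL3A1 (-1.56, adjusted p = 5.17e-06) and ICAM1, the ligand of ITGB2 integrins, which rose (1.38, adjusted p = 8.26e-06). COL3A1 is also among the 6 fibroblast markers, whose sum went from 9.96–11.1 to 5.05–5.88 FPKM in H460, most of it COL3A1 in controls. PDGFRB of the same list went the other way, at 0.429–0.646 FPKM in H460 controls and 2.24–2.53 FPKM after ISP-I, with 0.00954–0.0296 and 0.25–0.313 FPKM in A549, and the part of these markers in the result was not tested.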

How the data were processed

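RNA of 2 lines, H460 and A549, had been sequenced as 150 bp paired reads, 3 libraries for each of 4 groups. Per the paper's methods and the submitters' processing notes, the authors filtered reads by FastQC, used HISAT2 for mapping on hg38 and HTSeq 0.9.1 for counts per gene, and deposited the values as FPKM. The annotation version and the strand setting are not given in the sources used here, so reads of overlapping genes on opposite strands cannot be told apart. FPKM multiplied by gene length fell on steps of whole reads (within 0.01), which gave totals of 14225849 to 17874422 per library. 4 lines of the table without an Ensembl gene identifier were left out.

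A gene entered a fit where its libraries averaged 0.1 FPKM or more, and was tested on log2(FPKM + 1) by limma 3.58.1 with a mean-variance trend (R 4.3.3), with Benjamini-Hochberg adjustment over all genes tested. Groups came from the labels, and the columns name only line and treatment, so libraries are numbered by their place within a group. The scripts used Python 3.11.15, pandas 2.3.3 and numpy 2.4.6, and the tests were tried on simulated data. Alternatives were a pseudocount of 0.1, a minimum of 1 FPKM or none, median-of-ratios scaling, quantile normalization, voom on the recovered reads, a fit of all 12 libraries and leaving out each library. Removal of the GC trend and the region around ITGAM were chosen after seeing the data. Members and gene lists were chosen with earlier results of these data known. Values in every library are given for members called in a line or with a group mean of at least 5 FPKM, and for other lists the 3 called genes with the smallest p in a line. Other low members named with their values were chosen after the values were seen. 1 member and 1 neighbour of ITGAM are not reported here by name. Promoter letters came from a RefSeq table of GRCh38.p14. A p-value of an exact permutation test of 3 against 3 cannot go below 0.10, so shares were not tested.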

Additional observations from a re-analysis of the deposited data

Results flagged for a closer look

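For 5 members the change after ISP-I differed between the lines by the interaction term of limma, with a difference over 1 in log2 and an adjusted p under 0.05, given as H460 minus A549. ITGB4 differed by 1.78 (SE 0.11, adjusted p = 1.1e-07), with a fall in A549 and levels near 0 in H460. Those levels leave little room for a fall on log2(FPKM + 1), so the value says little on the response of H460. ITGB1 differed by 1.27 (SE 0.25, adjusted p = 0.00107), with a fall in A549 and a change in H460 that missed the p threshold. LAMB1 differed by -1.71 (SE 0.16, adjusted p = 3.18e-06), with a fall in H460 and a change in A549 that missed the p threshold. LAMA5 differed by -1.26 (SE 0.13, adjusted p = 8.7e-06), with the stronger fall in H460. ITGA2 differed by -1.03 (SE 0.25, adjusted p = 0.0039), with a rise in A549. ITGB1 and ITGA2 are AT-rich transcripts that were low in library 3 of the A549 controls and of treated H460. Without those libraries in turn, the difference was 1.45 and 1.45 for ITGB1 and -0.83 and -0.84 for ITGA2. The part of GC in these differences was not tested beyond the fit with its trend removed, which gave 1.30 for ITGB1 and -0.99 for ITGA2.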

How the results depend on the processing

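Of the values of single genes and shares, 684 counted as the same under an alternative. Another 9 lost and 14 gained the adjusted p, 18 changed sign and 6 moved. For a gene, the same meant its sign and its side of an adjusted p of 0.05, without the fold of 2. For a share, it meant a move smaller than the larger of the control and treated SDs. A gene could thus count as the same and lose its call, as ITGA2 in A549 did without control library 3. Of the counts of members, 153 stayed near the main value and 37 moved. With a pseudocount of 0.1, 5 members were called higher and 8 lower in H460, 5 and 4 in A549, 7 positive and 9 negative between the lines, and 4 higher in H460 and 15 in A549 before treatment. By voom with median-of-ratios factors these counts were 9 and 7, 9 and 7, 10 and 5, and 8 and 14, with 12 higher in H460 by adjusted p alone. By voom with library totals they were 7 and 9, 9 and 7, 8 and 10, and 8 and 15. Over all genes voom called 3080 higher and 2751 lower in H460, against 1409 and 2047, and 1354 and 1243 in A549, against 575 and 481. Both settings shrink the changes of low genes less. Median-of-ratios scaling gave 11 higher in H460 by adjusted p, 1 called higher in A549 and 1 negative between the lines. Quantile normalization left 1 called higher in A549. A minimum of 1 FPKM, which tests fewer genes, left 4 higher in H460 and 6 in A549 by adjusted p. Removal of the GC trend gave 4 called higher in H460, 12 higher there by adjusted p and 1 negative between the lines. Leaving out 1 library gave 1 to 3 called higher in A549, the lowest without control library 3, and 3 to 6 negative between the lines. In H460, ITGA6 changed sign under median-of-ratios scaling (0.064) and voom with its factors (0.071) and ranged from -0.35 to 0.027 without a library. ITGAV changed sign to 0.062 and 0.072, ITGA2 to 0.21, to 0.22 by quantile normalization and to 0.27 by voom, with -0.12 to 0.17 without a library, and ITGB4 to 0.25 with the GC trend removed. The difference of ITGAM between the lines changed sign to 1.80 with a pseudocount of 0.1, 0.045 and 0.040 by median-of-ratios scaling and quantile normalization, 4.54 and 4.22 by voom with median-of-ratios factors and library totals, and 0.082 with the GC trend removed. The share of ITGB5 in A549 ranged from -2.27 to 1.26 percentage points without a library. The cause of these moves was not tested. No paired analysis was possible because the columns name only line and treatment and carry no replicate number of the labels. Depth limits the members with fewer than 10 reads a library in a group, such as ITGAM in H460 controls, whose fold cannot be set closely.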
